A study of Mus musculus with 43 samples.

Results

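The ATP-binding cassette (ABC) transporter genes of a metabolic CRISPR library were followed in CD8+ T cells that had been transferred into tumour-bearing mice. Members were all sgRNAs whose target symbol starts with Abc, a subfamily letter from a to g and a digit. This rule gave 50 of 10640 sgRNAs, which target 10 of 2078 genes with 5 sgRNAs each. Subfamily a held 1 gene (*Abca1*), subfamily b held 3 (*Abcb1b*, *Abcb4* and *Abcb11*), subfamily c held 4 (*Abcc1*, *Abcc3*, *Abcc4* and *Abcc5*) and subfamily g held 2 (*Abcg5* and *Abcg8*). RefSeq annotates 50 protein-coding mouse genes whose symbols fit this rule, so most of these were not analysed here. ABC genes with other symbols were not sought.

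ABC transporters are membrane pumps that bind and hydrolyse ATP to move a substrate across a membrane, in mammals mostly out of the cytosol. Members of subfamilies a and g mainly export sterols and phospholipids, those of subfamily b carry drugs, phospholipids and bile salts, and those of subfamily c export organic anions, glutathione conjugates and cyclic nucleotides. In T cells the family is known above all for cholesterol efflux and for drug export, whereas the bile salt, biliary phospholipid and plant sterol pumps are known from hepatocytes and enterocytes.

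The screen measured how abundant each sgRNA was in the DNA of transduced OT-I T cells. These are CD8+ T cells of the mouse with a T cell receptor for ovalbumin and a knock-in Cas9 that is expressed constitutively from the *Rosa26* locus. CD90.1 is encoded by the sgRNA vector and marks transduced cells. Recipients were *Rosa26*-Cas9 mice of the C57BL/6J background with an orthotopic KPC_OVA tumour, a pancreatic ductal adenocarcinoma line made to express ovalbumin, and they received anti-PD-1 or a control IgG. Cells taken at transfer (T0) were the reference for cells sorted 7 days later from primary tumour, lung, liver, peritoneal metastases, spleen, and draining and nondraining lymph nodes.

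All groups, T0 included, carry Cas9 and the whole library, and no library of untransduced cells was used here. Values exist for 41 of 43 samples. The authors had left out replicate 1 of peritoneal metastases IgG and replicate 2 of liver anti-PD-1. Liver anti-PD-1 is therefore 1 library, liver IgG and peritoneal metastases IgG are 2 each, and T0 and every other group are 3. Peritoneal metastases anti-PD-1 replicate 2 is so titled, although its tissue label reads spleen, and was kept under its title. The labels call the libraries biological replicates without saying which mouse or culture each came from, so p-values measure the spread between these libraries. The authors corrected batches before these tests, and whether this removed a part of that spread was not tested. The values are an sgRNA signal that is no longer a count, so the read depth is unknown. Summed over all sgRNAs it ranged from 1788300 to 4228882 per library.

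The sgRNA sequences behind these values were not used here, because the table identifies each sgRNA by a number. *Abcc3* was also carried into a second library of the study with newly designed sgRNAs, and these sequences are shown because they locate the sites at which this gene was targeted for follow-up. They are printed 5′ to 3′ with the PAM, the NGG motif that Cas9 requires, in capitals. Each had 1 match in GRCm38.p6, and *Abcc3* lies on the minus strand of chromosome 11. The coordinates cover the bases in lower case.
*Abcc3* guide 1: gtcagtccactgattaactgAGG
*Abcc3* guide 2: tagggtattaacctatctggAGG
*Abcc3* guide 3: ctttgctaatccagtacgagCGG
Guide 1 matched chr11:94364777-94364796 on the plus strand, within coding exon 13 of 31. Guide 2 matched chr11:94361801-94361820 on the minus strand, where 17 of its bases lie in exon 18 and the rest in the adjoining intron. Guide 3 matched chr11:94374830-94374849 on the minus strand, within coding exon 4. That library was built from genes that the paper found enriched in some organ under some treatment, by both MAGeCK and STARS. The authors chose *Abcc3* for it on the libraries described here, so its values below are not independent of that choice. The method used below differs from these algorithms and called no *Abcc3* change.

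At T0 every ABC sgRNA was well represented. The mean T0 signal of the 50 sgRNAs ran from 130.3 (an sgRNA of *Abcc5*) to 1044 (an sgRNA of *Abcc1*), with a median of 268.8, against a median of 295.4 over all 10390 targeting sgRNAs and 269.4 over the 250 nontargeting sgRNAs. No ABC sgRNA had a signal under 10 in a T0 library, a level called low below. For each gene a score was then formed, the mean of log2(signal + 1) over its 5 sgRNAs less the nontargeting median of the same library. Scores at T0 varied little between the 3 libraries, with SDs from 0.04 (*Abcc1*) to 0.32 (*Abcc3*). *Abcc1* began highest at a mean of 0.95, and *Abcc5* began lowest at -0.20. A change below is the mean score of a group minus that of T0, on this log2 scale, so a negative change means that cells with the gene's sgRNAs were scarcer than at transfer. In bulk DNA a scarcer sgRNA does not tell fewer cells reaching an organ from fewer cells surviving there.

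Across the 10 groups outside the lymph nodes, few ABC genes departed from T0. Of 100 pairs of a gene and a group, 2 were called lower and 0 higher by limma with a threshold of 0.05 on the Benjamini-Hochberg adjusted p, while 17.7% of all gene-group pairs were called. Without adjustment 8 pairs had a p under 0.05, all of them lower, against 23.7% of all pairs. The direction of change was downwards in 74 of the 100 pairs, but 68 of the 100 lay above the median change of all genes in their group. That median was below 0 in every group, at -1.42 in lung IgG, -1.07 in lung anti-PD-1 and between -0.67 and -0.20 elsewhere. Averaged over the 10 groups, 0 of the 10 genes were called against 17.9% of all genes (limma, 0 of the 10 also at an unadjusted p under 0.05). These averages ran from -0.69 for *Abca1* to 0.00 for *Abcc1* and *Abcc3*, with a median of -0.42 beside -0.55 for all genes.

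The mean change of the ABC sgRNAs lay above that of all targeting sgRNAs in each of the 10 groups, by 0.59 to 0.87, and on both sides of that of the nontargeting sgRNAs, from 0.19 below it in peritoneal metastases IgG to 0.45 above it in the 1 library of liver anti-PD-1. In lung IgG their mean change was -1.17, beside -1.19 for the nontargeting and -1.80 for all targeting sgRNAs. In lung anti-PD-1 the same 3 values were -0.85, -0.82 and -1.58. In primary tumour IgG they were -0.16, -0.12 and -0.81. Medians lay closer together than these means. Averaged over the 10 groups, the median sgRNA was at -0.43 among ABC, -0.33 among nontargeting and -0.57 among all targeting sgRNAs. An sgRNA below T0 in all 10 groups was rare among both kinds, at 2 of 50 ABC sgRNAs (4%) and 11 of 250 nontargeting sgRNAs (4.4%), whereas 2035 of 10390 targeting sgRNAs (19.6%) were below T0 throughout. These shares are given as a description, since the sgRNAs share their libraries.

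The 2 called decreases were both in the lung. *Abcb11* encodes the bile salt export pump of hepatocytes. Its score at T0 was -0.04, 0.21 and 0.26 in the 3 libraries, and in lung IgG it was -1.86, -4.14 and -1.78. All 3 lung IgG libraries lay below all 3 T0 libraries, as they did for 54.6% of all genes. The change was -2.74 ± 0.68 (SE, n = 3), with an adjusted p of 0.0021 in limma, where 38.2% of all genes were called lower. Each SE and CI here and below rests on a variance per gene that is pooled over all groups of the fit. Of its 5 sgRNAs, 4 changed by -4.12 to -2.58 on the log2 scale, and s_04062 by -0.06. The signal of s_04064, for example, was 461.8, 377.0 and 221.5 at T0 and 1.5, 0.9 and 317.2 in lung IgG. So for this sgRNA 2 lung libraries were low and the third was within the T0 range. Against the T0 library of the same replicate number, the *Abcb11* score changed by -1.83, -4.35 and -2.04.

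Under anti-PD-1 the same gene gave lung scores of 0.996, -1.40 and -0.84. These libraries lay on both sides of T0, and the change of -0.56 was not called (95% CI -1.95 to 0.83). In the other organs *Abcb11* ranged from -0.72 in peritoneal metastases IgG to 0.76 in the single liver anti-PD-1 library. Primary tumour anti-PD-1 gave scores of 0.90, 1.09 and 0.40, all above T0, which 4.52% of all genes showed in that group. The change there was 0.65 (95% CI -0.74 to 2.04) and was not called.

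*Abcg8* and *Abcg5* encode the partner subunits of the sterol pump that returns plant sterols and cholesterol to gut lumen and bile, and each needs the other to function. The *Abcg8* score was 0.38, 0.37 and 0.15 at T0 and -1.997, -2.07 and -1.58 in lung anti-PD-1. The groups did not overlap, and the 3 lung values were close to each other, although 46.6% of all genes were also lower in every library there. The change was -2.18 ± 0.53 (SE, n = 3; adjusted p = 0.0017 in limma), in a group where 27.3% of all genes were called lower. Against the T0 library of the same number it was -2.37, -2.44 and -1.73. In lung IgG the scores were -0.86, -2.06 and 0.11, also all below T0, and the change of -1.23 was not called (adjusted p = 0.0636, limma).

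The 5 sgRNAs of *Abcg8* did not move alike. In lung anti-PD-1 s_05492 fell by 5.22, s_05494 by 3.46 and s_05491 by 2.39, while s_05495 was at -0.58 and s_05493 at 0.75. The signal of s_05492 was 340.2, 401.6 and 298.5 at T0 and 129.8, 0.9 and 0.0 in lung anti-PD-1. In lung IgG, however, the same sgRNA read 574.5, 694.3 and 246.0. Thus the sgRNA with the lowest change under anti-PD-1 exceeded every T0 value in 2 of the 3 lung IgG libraries. Of the 5, s_05491 alone was below T0 in all 10 groups.

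*Abcg5* had no called change in the lung. Its scores were 0.34, 0.03 and 0.57 at T0, 0.92, -1.02 and 1.21 in lung IgG, and -0.10, -0.52 and -0.35 in lung anti-PD-1. The lung IgG libraries spread on both sides of T0, and the lung anti-PD-1 libraries were all below it. The changes were 0.05 (95% CI -1.08 to 1.18) and -0.64 (95% CI -1.77 to 0.49), neither of them called. The lowest value of *Abcg5* was -1.44 in the 1 library of liver anti-PD-1. Its sgRNA s_04053 was below T0 in all 10 groups and averaged -1.20, whereas s_04054 averaged 0.65. The difference between *Abcg5* and *Abcg8* was not tested.

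Both lung calls stood beside a wider loss of signal in that organ. Between 5 and 17 of the 50 ABC sgRNAs were low in the 6 lung libraries, against 0 to 11 in the 20 libraries of tumour, liver, peritoneal metastases and spleen. The same was true of 17.2% to 43.3% and 5.63% to 25.8% of all sgRNAs. The part of this in the 2 calls was not tested. With scores centred on the mean of the nontargeting sgRNAs, which lay 1.19 and 0.82 lower against their own median in lung IgG and lung anti-PD-1 than at T0, neither was called. *Abcb11* then changed by -1.55 (adjusted p = 0.0973) and *Abcg8* by -1.36 (adjusted p = 0.0836) in limma. Taking the median of the 5 sgRNAs in place of their mean also ended both calls in limma, with *Abcb11* still at -2.60 (adjusted p = 0.0838) and *Abcg8* at -0.68 (adjusted p = 0.478). Fitting all 41 libraries together left the change of *Abcg8* at -2.18 and ended its call (adjusted p = 0.207, limma). Outside the lung 0 of 80 pairs were called (limma, 2 at an unadjusted p under 0.05).

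Whether the change of a gene differed between organs was tested across the 5 organs, each as the mean of its IgG and anti-PD-1 changes. The test called 1 of 10 ABC genes, *Abcg8* (adjusted p = 0.0268, moderated F-test of limma), against 3.71% of all genes. Its change was -0.28 in primary tumour, -1.71 in lung, -0.58 in liver, -0.23 in peritoneal metastases and 0.15 in spleen, beside medians over all genes of -0.22, -1.21, -0.33, -0.52 and -0.58. Lung was the lowest organ for *Abcg8*, and the pair lung and spleen differed by -1.86 ± 0.37 (SE, adjusted p = 0.0081 over all genes in limma), a comparison in which 4.81% of all genes were called. Lung also lay below primary tumour, by 1.42 ± 0.37 (adjusted p = 0.0133 in limma), where 20.5% of all genes were called. In that pair limma also called *Abcb11* (lung lower by 1.95, adjusted p = 0.0111) and *Abcc3* (lung lower by 1.89, adjusted p = 0.0239). Between lung and spleen neither of them was called (adjusted p = 0.0844 and 0.104 in limma). The adjustment ran over genes and not over the pairs of organs. The methods describe a batch correction between organs. In the values, however, 122 of 206 pairs of libraries with the same replicate number and different organs held identical values above 0, and 0 of 70 pairs with the same organ and different numbers did. Which grouping was corrected is therefore not settled here. Within each replicate number lung was lower than spleen for *Abcg8*, with differences of -1.60, -2.82 and -1.15, and lower than primary tumour, with differences of -1.61, -2.34 and -0.32.

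The organ call rested on single libraries and on the scale. It was lost without lung anti-PD-1 replicate 2 (adjusted p = 0.0535) or without lung IgG replicate 2 (adjusted p = 0.0695), with log2(signal + 10) (adjusted p = 0.220), with the median of the sgRNAs (0.878), with the nontargeting mean (0.628) and with all libraries in limma (0.9998).

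*Abcb11* and *Abcc3* came next in the test across the 5 organs, with unadjusted p of 0.0032 and 0.0148 in limma. Their adjusted p were 0.0590 and 0.121, and this test did not call them. For *Abcb11* the organ changes were 0.30 in primary tumour, -1.65 in lung, 0.33 in liver, -0.23 in peritoneal metastases and -0.31 in spleen. For *Abcc3* they were 0.57, -1.31, 0.70, -0.11 and 0.14 in the same order. In both genes lung was the lowest organ, as it was for the median of all genes. The other 7 ABC genes had adjusted p from 0.244 (*Abcb1b*) to 0.964 (*Abcc1*). *Abcc1* gave the narrowest range, from -0.20 in liver to 0.19 in primary tumour.

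The remaining members of subfamily b gave no call. *Abcb1b* encodes a P-glycoprotein of the mouse, a broad exporter of drugs and other hydrophobic compounds. Its scores were 0.20, 0.26 and -0.05 at T0, -1.43 and -1.50 in peritoneal metastases IgG, and -0.61, -3.22 and -0.22 in spleen anti-PD-1. All of these libraries lay below T0, in groups where 53.8% and 40.1% of all genes did the same. The changes of -1.60 and -1.48 had unadjusted p of 0.0395 and 0.0332 and adjusted p of 0.215 and 0.157 in limma. Without spleen anti-PD-1 replicate 2 the latter change was -0.55, and without replicate 3 it was -2.05 and was called (adjusted p = 0.0486 in limma). In spleen anti-PD-1 replicate 2, 11 of the 50 ABC sgRNAs were low. The sgRNAs of this gene fell into separate ranges. Averaged over the 10 groups, s_02590, s_02586 and s_02588 were at -1.48, -1.09 and -0.97, whereas s_02587 and s_02589 were at 0.16 and 0.12. The first 3 had T0 signals of 137.2 to 260.2 and the other 2 of 467.1 and 677.2, and a part of the T0 signal in this difference was not tested.

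*Abcb4* encodes the floppase that delivers phosphatidylcholine to bile. Its 5 sgRNAs were the most alike of the family, with averages from -0.76 to -0.34 over the 10 groups (SD 0.15, beside a median SD of 0.64 over all genes). Its lowest change was -1.52 in lung IgG, from scores of -1.77, -2.75 and -0.49, all below the T0 scores of -0.20, -0.03 and -0.22. It was not called (adjusted p = 0.0677, limma). Its highest was 0.84 in the liver anti-PD-1 library.

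*Abca1*, which loads cholesterol and phospholipid onto apolipoproteins, was the sole member of its subfamily and had the lowest average of the 10 genes. It was below T0 in 9 of 10 groups and below the median of all genes in 7 of them. Its sgRNAs were alike as well, with averages from -0.94 to -0.45. Scores were -0.33, 0.09 and 0.04 at T0, -1.12, -1.03 and -1.69 in spleen IgG, and -1.03, -3.75 and -0.06 in lung IgG. The spleen IgG libraries were all below T0, as for 35.2% of all genes, and those of lung IgG were not. The changes were -1.21 (95% CI -2.66 to 0.23) and -1.54 (adjusted p = 0.0801 in limma), neither of them called. Over the 10 groups the average change was -0.69 ± 0.53 (SE; adjusted p = 0.520 in limma).

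Subfamily c held the members with the highest average changes. *Abcc1* exports glutathione conjugates and leukotriene C4. Its T0 scores were 0.91, 0.98 and 0.96, and its group changes ran only from -0.57 in liver IgG to 0.52 in primary tumour anti-PD-1. In 9 of 10 groups it was above the median of all genes. Lung anti-PD-1 gave scores of 1.13, 1.80 and 1.46, all above T0, which 1.88% of all genes showed there. The change of 0.51 (95% CI -0.56 to 1.58) was not called. Of its sgRNAs s_02164 averaged 0.92 and was above T0 in 8 of 10 groups, and the other 4 averaged -0.42 to 0.05.

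*Abcc3* exports organic anions and conjugated bile salts across the basolateral membrane of epithelia. Outside the lung its changes ran from -0.40 in peritoneal metastases IgG to 1.03 in the liver anti-PD-1 library, and 6 of its 10 groups were above T0. Scores at T0 were 0.01, -0.02 and -0.55. Primary tumour anti-PD-1 gave 0.57, 0.08 and 0.48, and spleen IgG gave 0.14, 0.11 and 0.78. In both groups every library was above T0, which 4.52% and 3.27% of all genes showed, and the changes of 0.56 (95% CI -1.04 to 2.17) and 0.53 (95% CI -1.08 to 2.13) were not called. Lung IgG went the other way, with scores of -4.62, -0.70 and -0.57, a change of -1.78 and an adjusted p of 0.0703 in limma. In lung IgG replicate 1, 4 of the 5 sgRNAs of *Abcc3* were low.

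The sgRNAs of *Abcc3* differed among themselves. Averaged over the 10 groups s_06737 was at 0.63 and s_06739 at 0.35, each above T0 in 8 of 10 groups. In contrast s_06738 was at -0.89 and above T0 in 2 of 10. In primary tumour the signal of s_06737 was 285.3, 419.3 and 251.5 under IgG and 532.7, 346.1 and 146.6 under anti-PD-1, beside 558.6, 289.6 and 162.6 at T0. These ranges overlap, so the tumour values of that sgRNA alone do not separate from T0.

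*Abcc4* and *Abcc5* export cyclic nucleotides and other organic anions. *Abcc4* was below T0 in 9 of 10 groups, from -1.28 in lung IgG to 0.08 in primary tumour anti-PD-1, and averaged -0.57 ± 0.62 (SE). *Abcc5* averaged -0.16 and ranged from -0.89 in peritoneal metastases IgG to 0.76 in liver IgG. In those groups its scores were -0.97 and -1.20, and 0.70 and 0.43, beside -0.24, -0.07 and -0.28 at T0. They lay wholly below and wholly above T0, as the values of 53.8% and 7.6% of all genes did in these groups, and no change was called. *Abcc5* had the widest spread among sgRNAs in the family (SD 1.04). Its s_04069 averaged 1.47 and was above T0 in 9 of 10 groups, and s_04067 averaged -1.23 and was below T0 in 9 of 10. No other ABC sgRNA was above T0 in as many as 9 groups, and 291 of 10390 targeting sgRNAs (2.8%) were.

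Anti-PD-1 was then compared with IgG within organs. Over the mean of the 5 organs limma called 0 of 10 ABC genes and 0.481% of all genes. Without adjustment 2 of the 10 had a p under 0.05, beside 275 of all 2078 genes. *Abcb11* was higher under anti-PD-1, by 1.06 ± 0.35 (SE; adjusted p = 0.165 in limma), with differences above 0 in each of the 5 organs from 0.55 in spleen to 2.18 in lung. *Abcg5* was lower, by -0.60 ± 0.28 (SE; adjusted p = 0.353 in limma), with differences below 0 in each organ from -1.45 in liver to -0.16 in peritoneal metastases. Neither met the threshold. How many of all genes kept the same sign in all 5 organs was not counted. For the other 8 genes the mean difference ran from -0.34 (*Abcg8*) to 0.58 (*Abca1*), and the 95% CI of *Abcc1*, the narrowest, was -0.18 to 0.91.

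Within single organs 0 of 10 ABC genes were called in any of the 5. Over all genes 1.68% were called in lung and 0 in the other organs by limma. In lung 1 ABC gene, *Abcb11*, had an unadjusted p under 0.05 (adjusted p = 0.0897, limma), beside 390 of all 2078 genes. In the other organs no ABC gene did, beside 9 (primary tumour) to 124 (spleen) of all genes. *Abcg8* differed by -0.95 in lung, the opposite direction to *Abcb11*. Whether the anti-PD-1 difference varied between organs gave 0 calls among the 10 ABC genes and among all 2078 genes in the F-test of limma, and 0 and 64 at an unadjusted p under 0.05.

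Library genes that act beside these transporters gave a mixed picture. Over all genes of the library 17.7% of gene-group pairs were called. Among sterol genes, 29 of 120 gene-group pairs were called lower and 0 higher (24.2%), beside 0 of 10 for *Abca1* and 1 of 20 for *Abcg5* and *Abcg8*. Among genes of glutathione and leukotriene metabolism, 12 of 90 pairs were called lower and 0 higher, beside 0 of 10 for *Abcc1*. Ribosomal protein genes were called lower in 190 of 190 pairs, with medians per group from -6.57 to -5.43, far beyond any ABC gene. Among the solute carriers, another transporter family, 156 of 1830 pairs were called lower and 1 higher (8.58%), and among cytochrome P450 genes 37 of 810 were called lower and 0 higher (4.57%). The difference of these shares from the 2% of the ABC genes was not tested.

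In lymph nodes most sgRNAs were low, so the ABC genes are described by recovery, a signal of 10 or more. Over the 12 lymph node libraries 23.3% of ABC sgRNA values were recovered, beside 21.8% of all targeting and 22.1% of nontargeting values. Per library, 3 (nondraining lymph nodes anti-PD-1 replicate 1) to 25 (draining lymph nodes IgG replicate 3) of the 50 ABC sgRNAs were recovered. The libraries of replicate 3 recovered 12 to 25, those of replicate 1 recovered 3 to 11 and those of replicate 2 recovered 6 to 12. By gene, *Abcc1* was recovered most often, in 26 of 60 sgRNA values, and it also had the highest T0 score. *Abca1* was recovered least often, in 8 of 60, and *Abcb4* in 9 of 60, and the remaining 7 genes in 10 to 17 of 60. With recovery set at a signal of 50, *Abcc1* stood at 26, *Abca1* at 8 and *Abcb4* at 9 of 60.

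Where an ABC sgRNA was recovered in a lymph node its signal could be high. For example, s_05492 of *Abcg8* reached 7326 in nondraining lymph nodes anti-PD-1 replicate 1, s_02164 of *Abcc1* reached 5948 in the same library, and s_04069 of *Abcc5* reached 4771 in draining lymph nodes IgG replicate 1. The sgRNA with the highest signal among the 50 belonged to *Abcc5* or *Abcc1* in 8 of the 12 libraries.

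No direction of change is given for the ABC genes in lymph nodes, because it turned with the scaling. In a limma fit of all libraries with the nontargeting median as centre, 12 of 40 gene-group pairs were called, all higher, where 19.7% of all pairs were called. The median change was 1.79, beside 1.72 for all genes. With the values as deposited, 39 of 40 were called, all lower, with a median of -5.56 beside -5.58. In that setting 8269 of all 8312 pairs were called. With the nontargeting mean as centre 20 pairs were above and 20 below T0 and 2 were called, beside 124 of all 8312 pairs.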

How the data were processed

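The members, gene lists and tests were chosen with earlier results of these data known. The values are a signal per sgRNA and library that the authors deposited. To make it, the authors counted sgRNA reads with MAGeCK, used the 250 nontargeting sgRNAs for scaling and removed batch effects with ComBat. The deposited signal is not whole, which leaves depth unknown and excludes a count test. The genome build of this screen is not given in the sources used here. A signal under 10 was called low, a level chosen after the values were seen. Signals were called identical within a tolerance of 1e-09.

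From this signal, log2(value + 1) was centred on the nontargeting median of each library and averaged over the 5 sgRNAs of a gene. limma 3.58.1 in R 4.3.3 fitted 1 mean per group to the 29 libraries of T0 and the organs other than lymph nodes, and to all 41 libraries for lymph nodes. Each gene had 1 moderated variance for all libraries of the fit, so each SE, CI and p-value carries the spread of other groups. Spread differed between groups, with nontargeting SDs of 1.08 to 1.11 at T0 and 2.62 to 3.68 in lung on the log2 scale. Liver anti-PD-1, with 1 library, was assumed to vary like the other groups. Benjamini-Hochberg adjustment ran over 2078 genes within each comparison, with a threshold of 0.05. Named genes were those called, those with the lowest and highest average of each subfamily, and those with a listed role, which took in all 10 members. Guide matches were found in Python 3.11.15 in the RefSeq GRCm38.p6 genome. The scripts were tested on simulated data.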

Additional observations from a re-analysis of the deposited data

Results flagged for a closer look

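The change of *Abcg8* against T0 differed between the 5 organs (adjusted p = 0.0268, moderated F-test of limma), with lung the lowest. In 3 further cases every library of a gene lay above T0 in an IgG group of one organ and below T0 in that of another, and these differences were not tested. *Abcc1* changed by 0.37 in peritoneal metastases and by -0.57 in liver, with 2 libraries each. *Abcc3* changed by 0.53 in spleen and by -1.78 in lung, with 3 libraries each. *Abcc5* changed by 0.76 in liver and by -0.89 in peritoneal metastases, with 2 libraries each. None of these 6 changes was called by limma. The *Abcc3* score of lung IgG replicate 1 lay far below those of the other lung IgG replicates. Lying outside the T0 range was common for these genes. Of 26 libraries outside T0 and the lymph nodes, 0 lay within that range for *Abcc5*, 2 for *Abcc1* and 4 for *Abcc3*. How many of all genes showed such opposite patterns was not counted. Over all genes every library was higher than T0 for 3.27% in spleen IgG, 4.38% in peritoneal metastases IgG and 7.6% in liver IgG. Every library was lower for 54.6% in lung IgG, 53.8% in peritoneal metastases IgG and 45.7% in liver IgG.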

How the results depend on the processing

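The 2 calls against T0 became 0 with the median of the sgRNAs and with the nontargeting mean as centre. Of all 20780 gene-group pairs, 1707 and 3023 were called in these settings, beside 3678 in the main setting. Without the lung libraries, a setting added after the data were seen, both called pairs were absent from the test. Their loss there was fixed in advance, and 0 of the other 80 pairs were called. The 2 calls became 1 with all libraries in the fit, 11 with only the group compared and T0, and 12 with the values as deposited. Over all genes these settings gave 2582, 5333 and 5596 called pairs, in that order. The 1 call across organs became 0 with the median of the sgRNAs, log2(value + 10), the nontargeting mean, all libraries in the fit or without the lung libraries. It became 3 with the values as deposited. Of all 2078 genes, 77 were called in the main setting. The settings with 0 gave 14, 12, 9, 5 and 6 over all genes, in that order, and the values as deposited gave 300. The comparison of anti-PD-1 with IgG over the mean of the organs gave 0 calls in every setting run. The comparisons within single organs were not rerun. The 12 lymph node calls became 0 with the median of the sgRNAs or with only lymph nodes and T0 in the fit. They became 2 with the nontargeting mean, 7 without the lowest 10% of sgRNAs at T0, and 39, all lower, with the values as deposited. Of all 8312 pairs there, 1638 were called in the main setting. These settings gave 41, 9, 124, 1205 and 8269 over all genes, in that order. Of the 9 calls added with only the group compared and T0, 6 were in the 1 library of liver anti-PD-1, where the spread comes from T0 alone, and 4 of these were higher (*Abcb11*, *Abcb1b*, *Abcb4* and *Abcc3*). Why the other counts moved was not tested.

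With each library left out in turn, calls against T0 numbered 2 to 6, those across organs 0 to 3, those of anti-PD-1 0 to 0 and those in lymph nodes 4 to 17. The 6 came without lung IgG replicate 3, when *Abca1*, *Abcb4*, *Abcc3* and *Abcg8* were also called lower in lung IgG. Across organs, 0 came without lung anti-PD-1 replicate 2 or lung IgG replicate 2, 2 without lung anti-PD-1 replicate 1 or spleen anti-PD-1 replicate 2, and 3 without lung IgG replicate 3. Over all genes 45, 51, 150, 149 and 334 were then called across organs, in that order. In lymph nodes, 4 came without any 1 T0 library. No called change outside the lymph nodes turned its sign. With the replicate number as a block, 2, 1, 0 and 13 results were called in the same order, beside 3792, 79, 17 and 1911 over all genes. Libraries of 1 number share identical values. Their deviations outside T0 had a median correlation of -0.01 (-0.15 to 0.27) for the same number and -0.01 (-0.18 to 0.11) for different numbers. With T0 of the same number, correlations ran from -0.36 to 0.15, lymph nodes included. The values had been batch-corrected before, and a correction by replicate number would remove shared deviations. These correlations therefore cannot show whether libraries of 1 number are independent.

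Depth is unknown, and 1 to 3 libraries per group limit the precision.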
